A study of Mus musculus with 12 samples.

Results

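The 10 genes described here are immediate early genes, named as a set by symbol: Fos, Fosb, Jun, Junb, Egr1, Egr3, Nr4a1, Dusp1, Ier2 and Klf2. All 10 were found among the 34538 genes of the files, and 9 were among the 15854 genes expressed highly enough to be tested. Fosb was under the filter and is given as values only. Immediate early genes are transcribed within minutes of a stimulus such as a growth factor, depolarisation or stress, from factors that are already in the cell and without new protein synthesis. Their mRNAs are short-lived, so that their level follows the recent history of the cell. Most of them encode transcription factors, and in the nervous system and inner ear Fos is widely used as a mark of recently stimulated cells.

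RNA was sequenced from the cochlea, the part of the inner ear that hears, of C57BL/6J mice of wild type. The strain is inbred and loses hearing with age. All mice were 12 months old. The control group drank plain water, the coffee group drank water with 0.1% black coffee from 3 months of age, and the GTE group drank water with 0.006% green tea extract (GTE) over the same months. Each group had 4 libraries, called control 1 to 4, coffee 1 to 4 and GTE 1 to 4 by their labels, which do not say whether the replicates are separate animals. If they are not, the p-values measure a spread that may be technical.

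The values are FPKM, fragments scaled to gene length and to the depth of the library, so levels can be set side by side between libraries and, with a limit for Dusp1 and Nr4a1 given with the order of the genes, between genes. The denominators behind the FPKM ran from 20526024 to 24835934 fragments per library. At that depth the 10 genes were counted from 24 fragments (Fosb in GTE 3) to 4354 fragments (Dusp1 in control 1), and every tested member had at least 118. The cochlear label was checked on marker lists. All 6 hair cell markers were above 0 in every library, with a summed level of 80.8 to 98.7 FPKM in control, 41.1 to 78.5 FPKM in coffee and 53.5 to 78.8 FPKM in GTE. All 4 markers of spiral ligament fibrocytes were also above 0 everywhere, with sums of 1539 to 3291 FPKM. The 17 myeloid markers of bone marrow were present in every library too, with sums of 11390 to 18170 FPKM in control, 18950 to 30870 FPKM in coffee and 13440 to 35630 FPKM in GTE. The tissue was bulk, so fewer cells of a type and less RNA per cell cannot be told apart.

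Immediate early promoters are known for binding sites of CREB, the factor that cyclic AMP and calcium signals activate, and of serum response factor with its partners. RefSeq promoter windows on GRCm38.p6 matched 7 of the 10 genes (Fos, Fosb, Jun, Junb, Nr4a1, Dusp1 and Klf2). The sequences of Fos, Junb, Dusp1 and Jun are shown because Fos and Junb had close profiles over the libraries, Dusp1 holds the full CREB site, and Jun had a profile of its own. Each runs 5′ to 3′ on the strand of the gene and ends 30 bases before the annotated start, or 51 bases before it in Dusp1. The start is that of the RefSeq transcript, which in Dusp1 is at 26508472, inside the gene interval given with its values: that interval also holds a longer annotated transcript. Capitals mark the CREB half-site TGACG on either strand, and in Jun the AP-1-like site TGACATCA. The windows are Fos at chr12:85473690-85473860 (plus strand), Junb at chr8:84978778-84978948 (minus strand), Dusp1 at chr17:26508523-26508672 (minus strand) and Jun at chr4:95052252-95052422 (minus strand).
Fos: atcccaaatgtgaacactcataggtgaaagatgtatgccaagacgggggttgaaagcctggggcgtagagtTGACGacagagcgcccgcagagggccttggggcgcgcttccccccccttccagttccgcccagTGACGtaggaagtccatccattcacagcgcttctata
Junb: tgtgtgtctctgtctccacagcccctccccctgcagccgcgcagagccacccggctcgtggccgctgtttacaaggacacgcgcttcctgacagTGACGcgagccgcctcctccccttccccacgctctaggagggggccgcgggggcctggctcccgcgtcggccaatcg
Dusp1: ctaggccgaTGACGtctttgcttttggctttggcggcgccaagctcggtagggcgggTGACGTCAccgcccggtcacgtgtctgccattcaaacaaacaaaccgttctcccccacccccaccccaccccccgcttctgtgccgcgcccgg
Jun: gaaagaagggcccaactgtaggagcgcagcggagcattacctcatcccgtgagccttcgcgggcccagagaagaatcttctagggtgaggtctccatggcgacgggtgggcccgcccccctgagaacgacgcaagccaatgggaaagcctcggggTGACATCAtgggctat

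Within the 250 bases before the start, the half-site TGACG was found on either strand in 6 of the 7 promoters, against 17.8% of the 32851 mouse promoter windows of that length. Fos held 2 matches, the nearer of which began 66 bases before the start, and Nr4a1 held 4. The full site TGACGTCA, in which the half-site occurs on both strands, was found in Dusp1 alone, against 1.55% of all windows. Jun held no half-site, and its site TGACATCA, found in 2.93% of all windows, began 45 bases before the start. The AP-1 site TGANTCA and the CArG box of serum response factor were in none of the 7 windows, against 6.75% and 1.47% of all windows, and the EGR site GCGNGGGCG was in 3 of them (Fosb, Klf2 and Nr4a1), against 4.70%. Both strands were searched in each case. Bases farther from the start were not searched, so a site there would be missed, and Egr1, Egr3 and Ier2 had no window. A match is a match of letters and not an observed binding site.

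The AP-1 genes encode the FOS and JUN proteins that pair to form the transcription factor AP-1. Fos, the gene of the founding FOS partner (ENSMUSG00000021250, chromosome 12, 85473890 to 85477273 in mm10, protein coding, plus strand), stood at 37.7, 12.5, 11.2 and 11.0 FPKM in control 1 to 4. In coffee 1 to 4 it stood at 8.90, 11.1, 5.47 and 18.5 FPKM, and in GTE 1 to 4 at 40.4, 5.40, 5.18 and 6.17 FPKM. Control 1 and GTE 1 were high and near each other, coffee 4 came next, and the other 9 libraries lay between 5.18 and 12.5 FPKM. Between its lowest and highest library Fos differed 7.80-fold. The 3 groups overlapped, and within GTE the highest library was 7.47 times the median of the others.

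Fosb, which encodes a relative of FOS with a stable splice form known from repeatedly stimulated neurons (ENSMUSG00000003545, chromosome 7, 19302696 to 19310051, minus strand), was the lowest of the 10, at 0.624, 0.250, 0.297 and 0.282 FPKM in control, 0.348, 0.636, 0.171 and 0.452 FPKM in coffee, and 0.385, 0.312, 0.167 and 0.177 FPKM in GTE. Its values came from 24 to 95 fragments. Control 1 and coffee 2 were highest, at 94 and 95 fragments.

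Junb, which encodes a JUN partner that can restrain JUN in many cells (ENSMUSG00000052837, chromosome 8, 84974484 to 84978718, minus strand), stood at 62.4, 20.4, 29.5 and 28.5 FPKM in control, 28.0, 27.1, 19.2 and 36.4 FPKM in coffee, and 60.9, 24.4, 15.4 and 18.7 FPKM in GTE. Control 1 and GTE 1 were again the high pair, with coffee 4 next. Of its exon bases 7.5% are shared with Prdx2 on the opposite strand, which stood at a mean of 50.5 FPKM, and its values are uncertain to that extent because the strand setting of counting is not given in the sources used here.

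Jun, which encodes the founding JUN partner (ENSMUSG00000052684, chromosome 4, 95049034 to 95052222, minus strand), had another order of libraries. It was at 21.0, 18.5, 21.2 and 18.7 FPKM in control, 16.9, 21.1, 13.3 and 16.0 FPKM in coffee, and 11.5, 16.0, 16.2 and 17.0 FPKM in GTE. GTE 1, the library with the most Fos, had the least Jun of all 12. All 4 GTE libraries were below all 4 control libraries, while coffee overlapped both. Jun shares 7.3% of its exon bases with Junos on the opposite strand, which was at a mean of 0.931 FPKM.

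**Figure D1:**
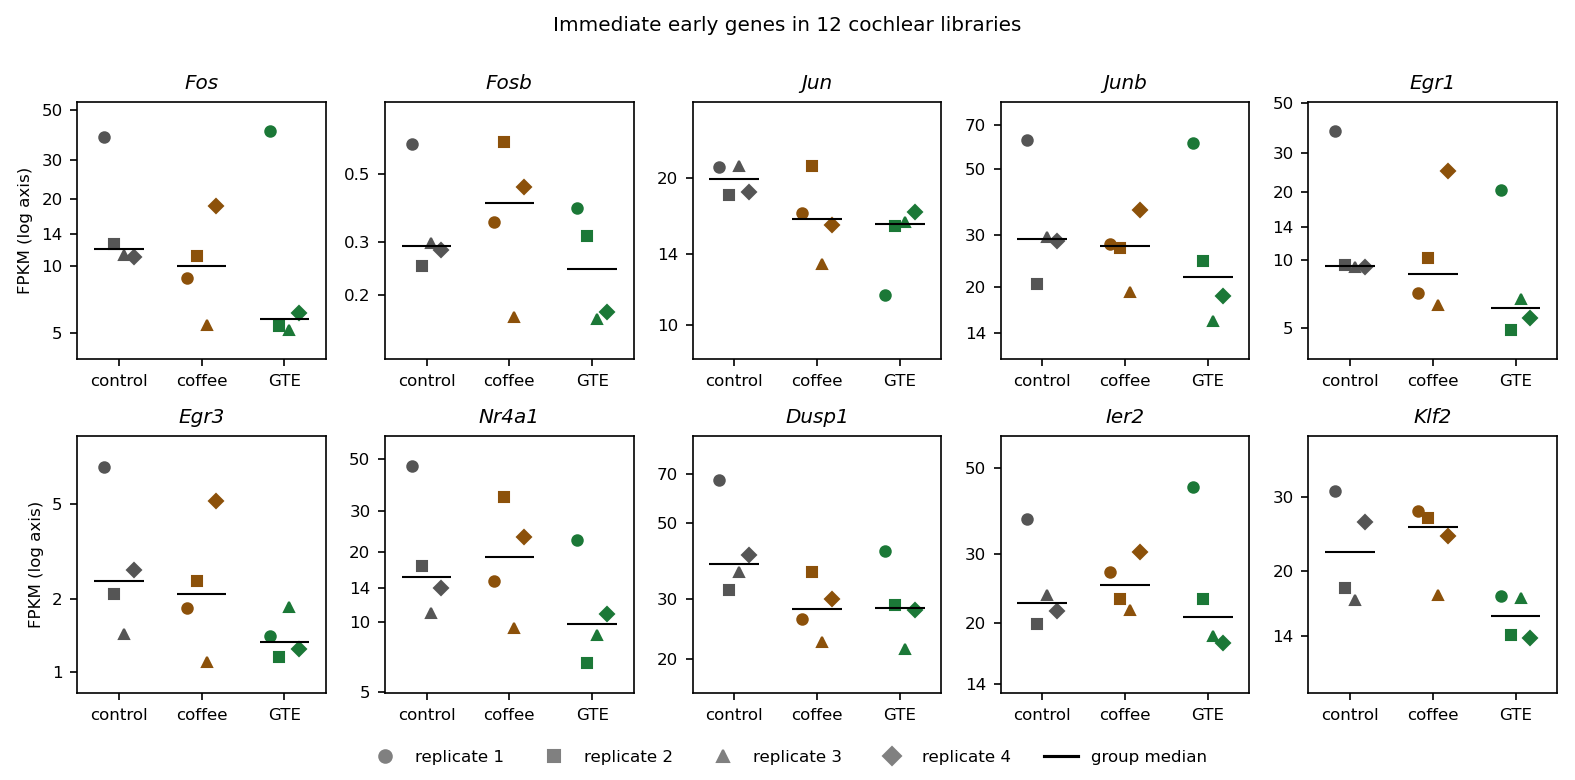
FPKM of each of the 10 genes in every library (log axis, scaled per gene), by group, with a marker shape per replicate number and a line at the group median. Replicate 1 of control lies above the rest of its group in 9 of the 10 genes, and Fos in replicate 1 of GTE is at 40.4 FPKM with the other 3 at 5.18 to 6.17 FPKM.

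The other transcription factors of the set had an order of libraries close to that of Fos in Egr1 and partly so in Egr3 and Nr4a1. Egr1, a zinc finger factor induced through the MAP kinase pathway (ENSMUSG00000038418, chromosome 18, 34859823 to 34864984, plus strand), stood at 37.4, 9.54, 9.37 and 9.33 FPKM in control, 7.12, 10.2, 6.36 and 24.9 FPKM in coffee, and 20.4, 4.92, 6.71 and 5.54 FPKM in GTE. One library of each group, control 1, coffee 4 and GTE 1, was at 20.4 FPKM or above, and the other 9 were at 10.2 FPKM or below. Control 2 to 4 lay between 9.33 and 9.54 FPKM.

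Egr3, a related zinc finger factor and in other tissues a target of calcium signalling (ENSMUSG00000033730, chromosome 14, 70077203 to 70082614, plus strand), was at 7.11, 2.11, 1.43 and 2.65 FPKM in control, 1.84, 2.38, 1.10 and 5.13 FPKM in coffee, and 1.41, 1.15, 1.87 and 1.25 FPKM in GTE. It was high in control 1 and coffee 4 but not in GTE 1, which was second in its group behind GTE 3. Nr4a1, an orphan nuclear receptor known from activated T cells and neurons (ENSMUSG00000023034, chromosome 15, 101254269 to 101274795, plus strand), was at 46.6, 17.3, 11.0 and 13.9 FPKM in control, 15.0, 34.5, 9.41 and 23.1 FPKM in coffee, and 22.5, 6.68, 8.84 and 10.9 FPKM in GTE. In coffee its highest library was coffee 2, not coffee 4.

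Klf2, a Krüppel-like factor that shear stress induces in endothelium and that resting lymphocytes express (ENSMUSG00000055148, chromosome 8, 72319033 to 72321656, plus strand), was at 31.0, 18.2, 17.0 and 26.1 FPKM in control, 27.8, 26.7, 17.5 and 24.2 FPKM in coffee, and 17.5, 14.1, 17.2 and 13.8 FPKM in GTE. GTE had the lowest median, 15.7 FPKM. All 4 GTE values were below all 4 coffee values (GTE 1 and coffee 3, the nearest pair, both round to 17.5 FPKM), and they overlapped control. The 12 endothelial markers summed to 118 to 140 FPKM in control, 116 to 129 FPKM in coffee and 108 to 120 FPKM in GTE, with none at 0, and their part in the values of Klf2 was not tested.

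The last 2 genes are not classical transcription factors. Dusp1, a phosphatase that switches off MAP kinases and so closes the feedback loop on the pathway that induces it (ENSMUSG00000024190, chromosome 17, 26505590 to 26562128, minus strand), stood at 66.9, 31.8, 35.9 and 40.3 FPKM in control, 26.3, 36.0, 22.4 and 29.9 FPKM in coffee, and 41.4, 28.7, 21.4 and 27.8 FPKM in GTE. Control 1 was the highest of all 12 libraries and GTE 1 the second. Ier2, which encodes a short-lived nuclear protein of the growth factor response (ENSMUSG00000053560, chromosome 8, 84661331 to 84662852, minus strand), was at 37.0, 19.9, 23.6 and 21.5 FPKM in control, 27.0, 23.1, 21.6 and 30.5 FPKM in coffee, and 44.7, 23.0, 18.5 and 17.8 FPKM in GTE, with GTE 1 and control 1 highest.

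In mean level over the 12 libraries the genes ran from Dusp1 (34.1 FPKM) through Junb (30.9 FPKM), Ier2 (25.7 FPKM), Klf2 (20.9 FPKM), Nr4a1 (18.3 FPKM), Jun (17.3 FPKM), Fos (14.5 FPKM) and Egr1 (12.7 FPKM) to Egr3 (2.45 FPKM) and Fosb (0.342 FPKM). The deposited values of Dusp1 and Nr4a1 are whole fragments at gene lengths shorter than their exon length in GENCODE M21. Rescaled to that exon length, as for the other 8, their means are 27.8 and 12.9 FPKM, which puts Dusp1 below Junb and Nr4a1 below Jun and Fos. The ranges of the first 8 over the libraries overlap between neighbours. Egr3 and Egr1 overlap too, and Fosb, with no library above 0.636 FPKM, lay below every Egr3 value.

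Coffee against control compares the mice given coffee with those on plain water. No immediate early gene passed limma's test at an adjusted p of 0.05, where 0.00631% of all tested genes did. Dusp1 had the lowest p, with a mean of 28.7 ± 5.81 FPKM (SD, n = 4) in coffee and 43.7 ± 15.8 FPKM in control. The difference was -0.55 ± 0.25 (SE) on the log2(FPKM + 1) scale, with a limma p of 0.0443, an adjusted p of 0.239 and an exact permutation p of 0.0857. Unadjusted, 1 of the 9 genes was under 0.05 on the low side, where 10.8% of all tested genes were. Fos differed by -0.59 ± 0.62, with a 95% interval of -1.95 to 0.78. Of the 9 differences 7 were below 0, against 48.2% of all tested genes, and their median was -0.24 against 0.010 over all tested genes. Jun differed by -0.24 ± 0.14, Junb by -0.25 ± 0.42, Egr1 by -0.33 ± 0.56, Egr3 by -0.22 ± 0.37 and Nr4a1 by -0.03 ± 0.50. Ier2 and Klf2 were the 2 tested genes above 0, at 0.03 ± 0.27 and 0.08 ± 0.19, and limma's adjusted p of these 7 ran from 0.342 to 0.973. Fosb had means of 0.402 FPKM in coffee and 0.363 FPKM in control. Without control 1 the differences of Fos and Dusp1 were -0.18 and -0.33, and those of Junb, Egr1, Egr3 and Nr4a1 were 0.06, 0.14, 0.14 and 0.39. With the mean of the 17 myeloid marrow markers as a covariate, Fos, Junb, Egr1 and Ier2 were at -2.0, -1.27, -1.33 and -0.70, with limma adjusted p of 0.207, 0.177, 0.458 and 0.150. In that fit Dusp1, Egr3 and Nr4a1 were at -0.94, -0.40 and -0.62, while Jun and Klf2 were at -0.04 and -0.09. Their limma adjusted p ran from 0.235 to 0.964.

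Green tea extract against control gave no call among the 9 either, with 0.00631% of all tested genes called. Jun had a mean of 15.2 ± 2.49 FPKM in GTE and 19.9 ± 1.45 FPKM in control, a log2 difference of -0.38 ± 0.14 with a limma p of 0.0217 and an adjusted p of 0.574. It was lower in 4 of 4 GTE libraries than in any control library, which gives an exact permutation p of 0.0286, the smallest that 4 against 4 allows. Groups that do not overlap on the low side were found for 2.95% of all tested genes. Klf2 was at 15.6 ± 1.96 FPKM against 23.1 ± 6.62 FPKM, a log2 difference of -0.50 ± 0.19 with a limma p of 0.0255, an adjusted p of 0.574 and an exact permutation p of 0.0857. These 2 of 9 were the genes with an unadjusted p under 0.05 on the low side, where 4.30% of all tested genes were. Fos differed by -0.68 ± 0.62, with an interval of -2.04 to 0.69. All 9 differences were below 0, against 48.4% of all tested genes, with a median of -0.52 against 0.007. Junb differed by -0.32 ± 0.42, Egr1 by -0.69 ± 0.56, Egr3 by -0.69 ± 0.37, Nr4a1 by -0.72 ± 0.50, Dusp1 by -0.52 ± 0.25 and Ier2 by -0.03 ± 0.27, with limma adjusted p of 0.574 to 0.976. Fosb had means of 0.260 FPKM in GTE and 0.363 FPKM in control. These values depend on 2 libraries. Without control 1, Fos, Junb, Egr1, Egr3, Nr4a1, Dusp1 and Ier2 were at -0.27, -0.01, -0.22, -0.33, -0.30, -0.30 and 0.16, and without GTE 1, Fos, Junb, Egr1 and Ier2 were at -1.34, -0.72, -1.11 and -0.32. Without coffee 1, coffee 4 and GTE 1, Jun and Klf2 were at -0.26 and -0.55, with limma p of 0.0901 and 0.0373. Without control 1 and GTE 1 they were at -0.23 and -0.40, with limma p of 0.127 and 0.0697. With the marrow covariate Fos, Junb, Egr1 and Ier2 were at -1.41, -0.85, -1.21 and -0.41, with limma adjusted p of 0.431 to 0.547. Jun, Klf2, Dusp1, Egr3 and Nr4a1 were then at -0.27, -0.59, -0.72, -0.78 and -1.03, with limma adjusted p of 0.44 to 0.651. The comparison shares its control libraries with that of coffee, so these directions are not separate evidence.

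Set directly against each other, GTE and coffee had their lowest p in Klf2, at 15.6 ± 1.96 FPKM and 24.0 ± 4.58 FPKM. The log2 difference was -0.58 ± 0.19, with a limma p of 0.0125, an adjusted p of 0.718 and an exact permutation p of 0.0286, again the smallest possible. No tested gene passed the adjusted threshold here (0%), 2.23% had an unadjusted limma p under 0.05 on the low side (Klf2 among the 9), and groups did not overlap on the low side in 0.839% of genes. Fos differed by -0.09 ± 0.62 and Junb by -0.07 ± 0.42, with intervals of -1.45 to 1.27 and -0.99 to 0.85. Nr4a1 had the largest difference in size, -0.69 ± 0.50. Egr3 differed by -0.47 ± 0.37, Egr1 by -0.36 ± 0.56, Jun by -0.14 ± 0.14, Ier2 by -0.06 ± 0.27 and Dusp1 by 0.04 ± 0.25, with limma adjusted p of 0.782 to 0.974. Fosb had means of 0.260 FPKM in GTE and 0.402 FPKM in coffee. Without GTE 1 the difference of Fos was -0.75. Over the 9 genes the median was -0.14 against -0.002 over all tested genes, with 8 below 0 against 50.5%.

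**Figure D2:**
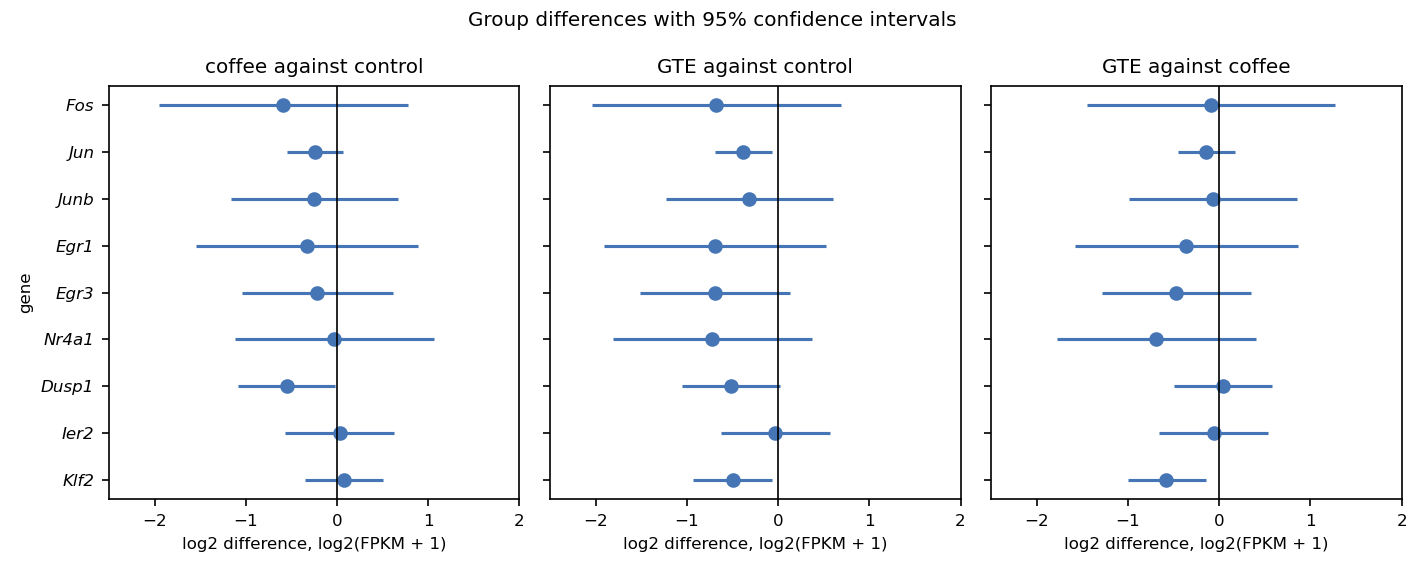
Log2 differences of the 9 tested genes (limma on log2(FPKM + 1), all 12 libraries) in the 3 comparisons, with 95% confidence intervals that are not adjusted for the number of genes. The interval of Fos spans -1.95 to 0.78 for coffee against control, while that of Jun for GTE against control, -0.69 to -0.07, is the narrower and lies below 0.

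Most of these genes varied more between libraries of the same group than most other genes did. The within-group SD of Fos was 0.98 on the log2(FPKM + 1) scale, at percentile 98.7 of all tested genes, where the median gene had 0.19. Egr1 (0.88), Nr4a1 (0.78) and Junb (0.66) followed at percentiles 98.2, 97.6 and 96.0. Egr3 (0.58), Ier2 (0.43) and Dusp1 (0.38) came next, at percentiles 94.2, 87.1 and 84.0. Klf2 (0.30) and Jun (0.21) were at percentiles 74.4 and 57.0. Counting error is small beside this spread: the high Fos values rest on 2138 fragments in control 1 and 2213 in GTE 1, and the lowest on 280 in GTE 3.

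**Figure D3:**
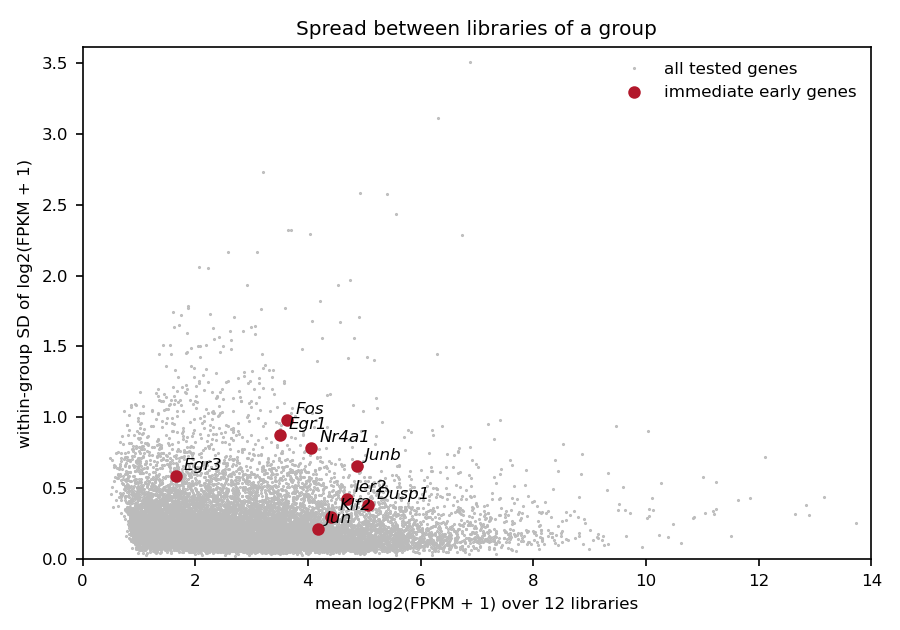
SD of log2(FPKM + 1) within groups against mean log2(FPKM + 1) over the 12 libraries, for the 15854 tested genes (grey) and the 9 tested immediate early genes (red). Fos, Egr1, Nr4a1 and Junb lie above the 95th percentile, 0.61, and Jun lies near the median, 0.19.

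The same libraries held the high values. Control 1 was the highest of its group in 9 of the 10 genes (all but Jun), as it was in 23.3% of all tested genes. GTE 1 was highest in 8 (all but Jun and Egr3) and in 34.5% of all tested genes, and coffee 4 in 5 (Fos, Junb, Egr1, Egr3 and Ier2) and in 18.1%. Fos, Junb, Egr1 and Ier2 had all 3 of these libraries highest at once, as did 3.89% of all tested genes. Coffee 2 was the highest of its group in Fosb, Jun, Nr4a1 and Dusp1, and in 28.1% of all tested genes. At the other end, coffee 3 was the lowest coffee library in all 10 genes, Jun included, and in 31.3% of all tested genes. Its 7 skeletal muscle markers summed to 1411 FPKM, against 37.9 to 108 FPKM in the other coffee libraries, with none at 0 in any library. Control 3 also had a high sum of these markers, 670 FPKM. It was the lowest control library in 3 of the 10 genes and in 28.5% of all tested genes, and the highest in Jun. The part of muscle tissue in the low values of coffee 3 was not tested.

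**Figure D4:**
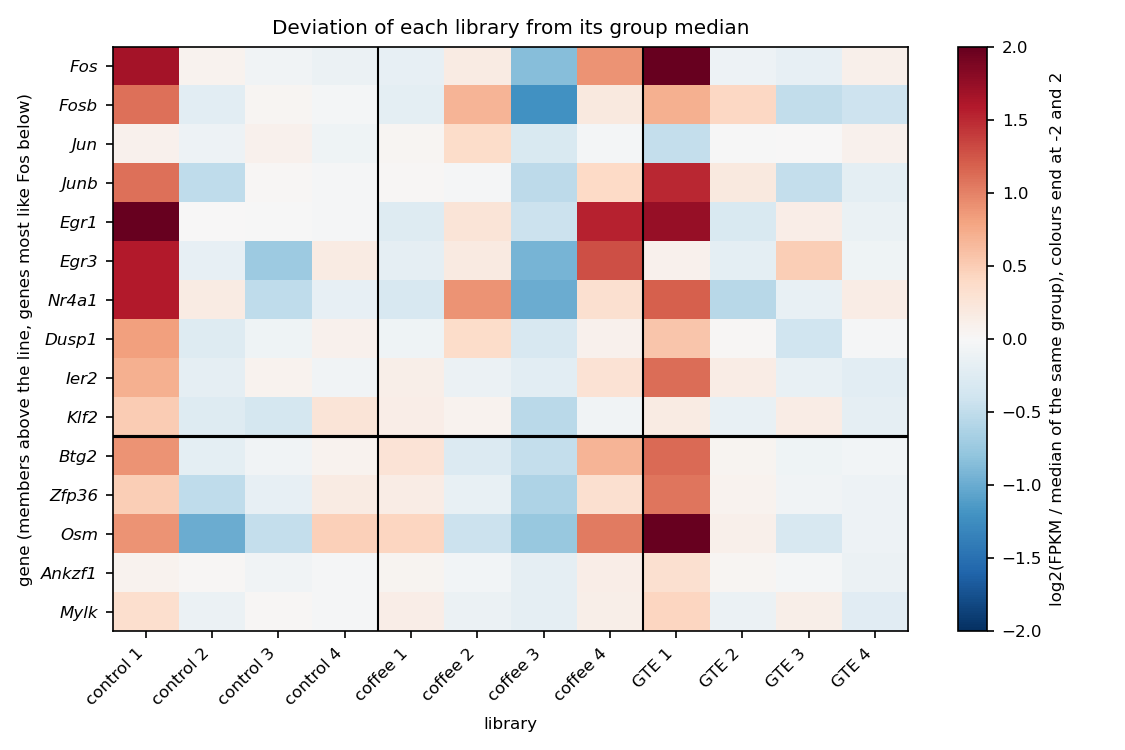
Log2 ratio of each library to the median of its own group, for the 10 genes and, below the line, the 5 genes with the profile most like that of Fos. Colours end at -2 and 2. Control 1 and GTE 1 are red in most rows, coffee 4 is red for Fos, Egr1 and Egr3, and the row of Jun is pale, with GTE 1 blue.

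Over the 12 libraries, 7 of the other 9 genes correlated with Fos on the log2 scale (permutation test with 100000 resamples, adjusted over the 9 relations). The share of all tested genes that would pass was not taken, so this count has no background beside it. Egr1 followed it closest, with a Pearson r of 0.93 (adjusted permutation p = 0.00054) and a Spearman rho of 0.91 (adjusted permutation p = 0.00099). Within groups, after each group's mean was taken out, its r was still 0.93, and without GTE 1 and control 1, the libraries farthest from the median of Fos, it was 0.90. Junb had the same r of 0.93 (adjusted permutation p = 0.00054) and a rho of 0.83, with 0.77 without the farthest libraries. Ier2 (r of 0.88, rho of 0.70), Dusp1 (0.82 and 0.80) and Nr4a1 (0.81 and 0.85) came next, with adjusted permutation p of 0.0015, 0.0015 and 0.0032 for r. Fosb (0.67 and 0.65) and Egr3 (0.61 and 0.52) were the last that passed on r, and Egr3 did not pass on rho (adjusted permutation p = 0.11). Without GTE 1 and control 1 the count of genes past the threshold was 4 of 9 (Junb, Egr1, Egr3 and Nr4a1). The r of Ier2, Dusp1 and Fosb was then 0.61, 0.65 and 0.61, over 2 libraries fewer.

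Klf2 (r of 0.48, adjusted permutation p = 0.13) and Jun (r of -0.02, adjusted permutation p = 0.96, rho of 0.20) did not pass over the 12 libraries. This rests on GTE 1: without that library alone the r with Fos was 0.60 for Jun and 0.72 for Klf2, and all 9 relations passed. Without GTE 1 and control 1 the r of Jun was 0.50 and that of Klf2 0.61, neither of which passed. For Jun, over the 9 libraries other than control 1, coffee 4 and GTE 1, r was 0.81. Over the same 9 libraries it was 0.90 for Egr1, 0.81 for Dusp1, 0.72 for Nr4a1 and 0.69 for Egr3. For Junb, Klf2, Fosb and Ier2 it was 0.65, 0.58, 0.53 and 0.33. Those 9 libraries were selected by their values, so the values of r over them are a description. The closest pairs outside Fos were Junb with Ier2 (r of 0.95) and Fosb with Nr4a1 (r of 0.87). These values share the library and its cell makeup, and the genes are not independent of each other.

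**Figure D5:**
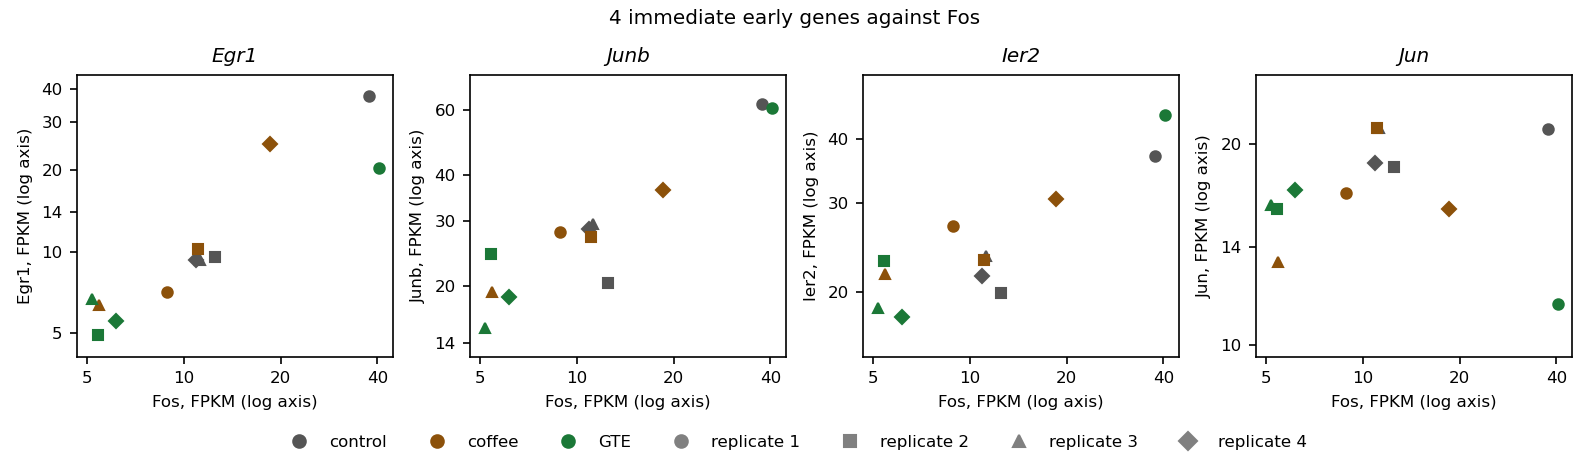
FPKM of Egr1, Junb, Ier2 and Jun against that of Fos in the 12 libraries (log axes), coloured by group with a shape per replicate number. Higher Egr1 and Junb go with higher Fos (r of 0.93 each), the highest Ier2 values are those of GTE 1 and control 1, and GTE 1 holds the highest Fos and the lowest Jun.

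The profile of Fos was set against those of 12183 other tested genes. These had a mean of at least 2 FPKM and a symbol that is not a predicted, clone or Rik name. Among them the 5 with the profile most like that of Fos were Btg2 (r of 0.87), Zfp36 (0.86), Osm (0.84), Ankzf1 (0.82) and Mylk (0.82), over the 12 libraries. Btg2, an antiproliferative gene induced early in many cells, stood at 34.9 FPKM in control 1, 32.7 FPKM in coffee 4 and 36.5 FPKM in GTE 1, and at 14.8 to 24.9 FPKM in the other 9 libraries. Zfp36, which encodes a protein that destabilises mRNAs with AU-rich elements, stood at 21.9, 20.3 and 23.8 FPKM in these 3. Osm, the cytokine oncostatin M, stood at 4.93, 5.55 and 8.86 FPKM. To the mean standardised profile of the 9 tested members the closest genes were Sik1 (0.87), Zfp36 (0.84), Csrnp1 (0.84), Snai1 (0.81) and Mylk (0.81). Sik1 is a kinase gene induced by cyclic AMP, and was highest in control 1 (18.3 FPKM) and coffee 2 (17.4 FPKM).

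Markers of blood cells were high in some of these libraries and not in all. The summed level of the 17 myeloid marrow markers was 18010 FPKM in control 1, 24010 FPKM in coffee 4 and 35630 FPKM in GTE 1, and all 17 had GTE 1 as the highest GTE library and 10 had control 1 as the highest control library. Coffee 1 and coffee 3 had higher sums than coffee 4, 30870 and 26200 FPKM, with Fos at 8.90 and 5.47 FPKM, and control 3 had a higher sum than control 1, 18170 FPKM, with Fos at 11.2 FPKM. The order was partly another in the mean log2 level of the myeloid list. On that scale control 1 was the highest control library, at 8.36 against 8.13 in control 3. Coffee 4, at 8.96, was above coffee 3 (8.77) and below coffee 1 (9.33). Over the 12 libraries the mean log2 level of the myeloid list and Fos had an r of 0.36, as a description. For the erythroid, B cell and macrophage lists this r was 0.39, 0.37 and 0.43. The 10 erythroid markers summed to 3014 FPKM in control 1, the lowest control sum, and to 5191 and 8832 FPKM in coffee 4 and GTE 1. Globin genes weigh most in these sums, with Hbb-bs at a control mean of 2210 FPKM. In mean log2 level control 1 was at 5.41, against 4.77, 5.61 and 4.55 in control 2 to 4. The 6 B cell markers summed to 11.0, 28.7 and 43.2 FPKM in control 1, coffee 4 and GTE 1, the highest of each group, against 6.73 to 8.51 FPKM in the other controls and 9.07 to 25.9 FPKM in the other GTE libraries. The 8 macrophage markers were also highest there, at 325 FPKM in control 1, 432 FPKM in coffee 4 and 325 FPKM in GTE 1. None of the markers on these lists was at 0 in any library. The fit with the myeloid list as a covariate is given with the group comparisons above, and the part of the erythroid, B cell and macrophage lists was not tested.

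Other immediate early genes were read from a list of 31, of which 29 were tested. None passed in any comparison. For GTE against control 5 of the 29 had an unadjusted limma p under 0.05 on the low side, against 4.30% of all tested genes, and the median difference was -0.15. The 4 with the lowest p were Nfil3, a repressor in the circadian and immune systems (-0.83 ± 0.24), Gadd45g, a stress gene (-0.57 ± 0.17), Sik1 (-0.38 ± 0.13) and Rhob, a short-lived small GTPase (-0.40 ± 0.15), with limma adjusted p of 0.543, 0.543, 0.561 and 0.574. For coffee against control 1 of the 29 was under 0.05, Myc, with a mean of 8.97 FPKM in coffee and 4.76 FPKM in control and a limma adjusted p of 0.232, where 9.25% of all tested genes were on the high side. Within the list, Btg2, Zfp36, Npas4 and Nfil3 had control 1, coffee 4 and GTE 1 as the highest library of their groups, a set picked after the values were seen.

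Other genes of the list had another order of libraries. Arc, a synaptic gene, was at 4.0 FPKM in control 1 and 3.17 FPKM in coffee 4 but at 0.421 FPKM in GTE 1, the lowest of all 12 libraries. Npas4, a neuronal factor, instead had control 1, coffee 4 and GTE 1 highest in their groups, as Fos did. It was low, at 0.112 to 0.569 FPKM over the libraries, and under the filter. GTE 1 stood at 0.550 FPKM, against 0.112 to 0.332 FPKM in the rest of its group. Egr2, which was chosen after its values were seen, was at 4.45, 4.16 and 1.72 FPKM in the same libraries. Nr4a2 and Nr4a3, the relatives of Nr4a1 and chosen likewise, were highest in coffee 2, at 7.16 and 2.86 FPKM, where Nr4a1 was also highest of its group.

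Of the partners of AP-1 outside the set, 10 of 11 were tested and none passed in any comparison. Their median differences were 0.16, -0.01 and -0.18 for coffee against control, GTE against control and GTE against coffee. Fosl2 was the partner gene with control 1, coffee 4 and GTE 1 all highest. Of the 29 kinases and factors that act upstream of immediate early genes, none passed, and for coffee against control 4 were under an unadjusted limma p of 0.05 on the high side, where 9.25% of all tested genes were. Among them were Rps6ka1, a kinase of ribosomal protein S6 and of CREB (0.49 ± 0.20), Mrtfa, a coactivator of serum response factor (0.53 ± 0.21) and Mef2d, a factor with roles in calcium signalling (0.27 ± 0.12), beside 1 gene outside the naming rule. Crem, which includes a cyclic AMP-induced repressor, was lower by an unadjusted limma p in both drinks, at 2.60 FPKM in each against 3.45 FPKM in control, with limma adjusted p of 0.229 and 0.574. Of the 17 feedback inhibitors none passed, and Zfp36l1 and Nab2, a corepressor of EGR1, had differences of -0.35 ± 0.12 and -0.30 ± 0.12 for GTE against control.

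Stress responses can induce several members, and these lists had another order of libraries. The list of 12 heat shock genes is mostly cytosolic but includes Hspd1 and Hspe1, which encode mitochondrial chaperones. Its sum was highest in control 3 (2400 FPKM) and coffee 2 (2037 FPKM), and GTE 1 had the lowest of all 12 libraries, 1301 FPKM. For Hspd1 and Hspe1 GTE 1 was the highest GTE library. None of the 12 genes passed in any comparison. For GTE against control 9 of 12, Hspe1 among them, had an unadjusted limma p under 0.05 on the low side. This compares with 4.30% of all tested genes, and the median of the list was -0.69. Hspa8, a constitutive chaperone, had the lowest p, with a mean of 342 FPKM in GTE against 564 FPKM in control and a limma adjusted p of 0.340. Of 11 tested glucocorticoid response genes, a list that includes Per1, Fkbp5 and Tsc22d3, none passed, and 5 and 7 had an unadjusted limma p under 0.05 on the low side for coffee and GTE against control, where 10.8% and 4.30% of all tested genes did. Dusp1 and Klf2 are themselves known to respond to glucocorticoids and to flow, respectively. The glucocorticoid list summed to 561 and 588 FPKM in control 1 and control 4. There the 4 flow-responsive endothelial genes (Klf4, Nos3, Thbd and Edn1) summed to 52.6 and 61.1 FPKM, whatever the direction in which flow changes each of them. In GTE 1 these sums were the lowest of all 12 libraries, 303 and 36.5 FPKM. The part of either response in the values of Dusp1 and Klf2 was not tested.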

How the data were processed

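Cochlear RNA of 12 libraries in 3 groups of 4 was measured with a stranded mRNA kit after Trizol extraction, per the labels' protocols. The authors deposited FPKM values, 1 per gene and library. Trimmomatic, HISAT2, Cufflinks, HTSeq and the build mm10 are named in the submitters' processing notes. What each did, its version and whether counting used strand is not given in the sources used. FPKM values moved in steps that were whole fragments, within 0.01, at the GENCODE M21 exon length for 31897 of 34538 genes (92.4%). Dusp1 and Nr4a1 were whole at lengths of 2697 and 2474 bases in place of 3311 and 3509, which scales their level against other genes but not between libraries. On a gene of 2000 bases 3 fragments equal 0.060 to 0.073 FPKM, a limit of counting alone. A symbol matched 34459 identifiers (99.77%).

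The main test was limma 3.58.1 (R 4.3.3) on log2(FPKM + 1), with 3 group means over the 12 libraries, moderated variances that follow the mean (empirical Bayes), and Benjamini-Hochberg adjustment at a threshold of 0.05 over 15854 genes. These reached 1 FPKM in 4 libraries or more. A difference on this scale understates the change of low genes. Exact permutation tests were two-sided over 70 arrangements, with a smallest p of 0.0286. Correlations with Fos used 100000 resamples (scipy 1.17.1). The fit and the exact test were tested on simulated data. Sample titles gave the groups and the replicate numbers. All 10 genes are named in every comparison, from each other list up to 4 tested genes with the smallest limma p in a comparison, and the 5 genes most like Fos and most like the mean of the members. The members and lists were chosen with earlier results of these data known. Alternatives covered pseudocounts, filters, scalings, variance models, a replicate block, a marrow covariate and left-out libraries. Promoter windows came from RefSeq (GRCm38.p6).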

Additional observations from a re-analysis of the deposited data

Results flagged for a closer look

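In 5 of the 30 sets of 4 libraries (10 genes in 3 groups), 1 library lay far from the others on the log2(FPKM + 1) scale, by the share of the group's range that its gap to the nearest other library took up. For a single set of normal values chance flags about 1 in 20. The 30 sets are not independent, since the genes vary together over the same libraries, so the 5 cannot be set against that rate. For Fos the share was 0.922 in GTE 1 (40.4 FPKM, the others at 5.18 to 6.17 FPKM) and 0.896 in control 1 (37.7 FPKM, the others at 11.0 to 12.5 FPKM). For Egr1 in control 1 it was 0.984 (37.4 FPKM, the others at 9.33 to 9.54 FPKM). For Fosb in control 1 it was 0.859 (0.624 FPKM, the others at 0.250 to 0.297 FPKM). In Jun the distant library was the lowest, GTE 1, with a share of 0.831 (11.5 FPKM, the others at 16.0 to 17.0 FPKM). Control 1 and GTE 1 account for all 5, and the cause was not tested.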

How the results depend on the processing

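The count of immediate early genes called was 0 in each of the 3 comparisons under all 27 alternatives, including the replicate block (0, 0 and 0 called). Whether the replicate numbers pair the libraries is not known. Correlations of same-numbered deviations ran from -0.383 to 0.55, and those of replicate 1 were 0.137, 0.401 and 0.55. With the block the SE for coffee against control went from 0.62 to 0.49 for Fos and from 0.14 to 0.15 for Jun. Over all genes, coffee against control had 1 call, 2437 with sample weights, 98 without coffee 3 and 28 without GTE 1, and GTE against coffee had 0 and 365 with sample weights. None of these added a member. Relations with Fos past the threshold numbered 7, and 5 to 9 when 1 library was left out (9 without GTE 1). They numbered 4 without GTE 1 and control 1, and 4 without control 1, coffee 4 and GTE 1, in both cases with fewer libraries. No share over all tested genes was taken for these counts. The last exclusion, and that of control 1 with GTE 1 from the fits, were chosen after seeing the data.

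Several uncalled differences changed sign, and the cause was not tested. For coffee against control, leaving out control 1 and GTE 1 gave 0.06 (Junb), 0.14 (Egr1), 0.14 (Egr3) and 0.39 (Nr4a1), and leaving out coffee 4 as well gave 0.28 (Nr4a1). Ier2 and Klf2 were at -0.70 and -0.09 with the marrow covariate, -0.02 and -0.03 with sample weights, and -0.14 and -0.05 without coffee 1, coffee 4 and GTE 1. Over single left-out libraries the ranges were -0.46 to 0.06 (Junb), -0.72 to 0.14 (Egr1), -0.51 to 0.14 (Egr3), -0.32 to 0.39 (Nr4a1), -0.07 to 0.22 (Ier2) and -0.05 to 0.23 (Klf2). For GTE against control, Ier2 over single left-out libraries ran from -0.32 to 0.16, and its mean difference in plain FPKM was 0.53. For GTE against coffee the marrow covariate gave 0.59 (Fos), 0.42 (Junb), 0.12 (Egr1) and 0.29 (Ier2). Dusp1 was at -0.18 with sample weights, -0.14 without coffee 1, coffee 4 and GTE 1, -0.13 without control 1 and GTE 1, and -0.10 without coffee 4 as well. Single left-out libraries gave -0.75 to 0.18 (Fos), -0.48 to 0.16 (Junb), -0.78 to 0.03 (Egr1), -0.13 to 0.18 (Dusp1) and -0.35 to 0.08 (Ier2). In plain FPKM the differences were 3.28 (Fos), 2.14 (Junb) and 0.476 (Ier2). For GTE against control every tested gene but Ier2 kept its sign under all alternatives that included it. The ranges were -0.43 to -0.23 (Jun), -0.66 to -0.35 (Klf2), -1.56 to -0.27 (Fos), -0.95 to -0.01 (Junb) and -1.39 to -0.22 (Egr1). Those of Egr3, Nr4a1 and Dusp1 were -0.99 to -0.33, -1.31 to -0.30 and -0.88 to -0.30.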
